A study of Arabidopsis thaliana with 12 samples.

Results

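Heat shock transcription factors (HSFs) are plant regulators that bind heat shock elements, short repeats of the bases GAA and TTC, in front of chaperone genes. Class A members carry an activation domain, and members of class B lack it and mostly act as repressors. Several HSF genes are themselves switched on by heat, drought or the stress hormone abscisic acid, so the family works as a cascade in which some members activate others. The 10 genes described here were chosen by name: HSFA1A, HSFA2, HSFA3, HSFA4A, HSFA6A, HSFA6B, HSFA7A, HSFB1, HSFB2A and HSFB2B. They are 10 of 28775 loci in the count files and 10 of 21 HSF genes there.

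Messenger RNA was sequenced from whole plants of Arabidopsis thaliana, strain Ws, 14 days old and grown on MS medium without a heat treatment named in the labels. The question of the study was which genes depend on GRF1 and GRF3, transcription factors of the growth-regulating factor family. The 4 genotypes, with 3 libraries each, were WT, plants carrying 35S:GRF1-GFP (GRF1_OE), plants carrying 35S:GRF3-GFP (GRF3_OE) and plants labelled grf1/grf2/grf3 (grf123). The viral 35S promoter drives a gene in nearly all tissues, and the sources used here do not give how many independent lines stood behind a genotype. The labels describe blocks, but nothing in them tied the 3 libraries of a genotype to those blocks or to separate sowings. A p-value here thus sets differences against the spread among these libraries, and part of that spread may be technical.

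Counts assigned to genes ran from 2820223 to 14277574 per library, with WT replicate 3 the lowest, and the nuclear 18S ribosomal RNA held 13.1 to 31.8% of them, again with WT replicate 3 at the extreme. Reads outside annotated genes made up 4.08 to 5.11% of unique reads in the overexpressor libraries. They made up 6.39 to 12.1% in the libraries labelled grf123 and WT, with no overlap. This library trait and the transgene cannot be told apart in comparisons of the overexpressors with WT or grf123. GRF1 stood at 17.1 ± 1.57 CPM (counts scaled to library size; mean and SD, n = 3) in WT and at 150 ± 35 in GRF1_OE. GRF3 stood at 22.5 ± 6.78 CPM in WT and at 210 ± 13.7 in GRF3_OE. In the libraries labelled grf123, GRF2 was at 0.929 ± 0.253 CPM against 11.1 ± 2.35 in WT and GRF1 at 8.58 ± 1.25, but GRF3 was at 22.7 ± 2.62, near its WT level. Counts per locus do not show whether a transcript is intact, so the label was not tested by them. GRF2 was as low in both overexpressors, at 0.742 ± 0.493 and 0.869 ± 0.275 CPM. GRF1 in GRF3_OE was at 8.85 ± 0.153 CPM, near its level in the libraries labelled grf123 and below WT. GRF3 in GRF1_OE was at 27.2 ± 2.48 CPM, not below its WT mean. The labels do not say into which background the transgenes were brought, so a difference in background and the transgene cannot be told apart in the changes of the overexpressors against WT. The 6 green shoot markers summed to between 25300 and 31300 CPM in every library. RBCS1A was the largest part of that sum, at 11700 CPM in GRF1_OE and 9610 in WT. PSBO1 also had a higher mean in GRF1_OE than in WT, and LHCB1.1, LHCB2.1, CAB3 and RCA had lower ones. By edgeR (adjusted p under 0.05), 0 of the 6 were higher and 3 lower in GRF1_OE against WT, beside 10% and 11.8% of all genes. The 10 root markers summed to 112 to 127 CPM in WT, 92.3 to 94.7 in the libraries labelled grf123, 71.6 to 97 in GRF3_OE and 70 to 72.6 in GRF1_OE, and 5 flower markers to 11.4 to 12.7, 7.32 to 12.5, 19.6 to 24.1 and 20.2 to 25.8 in the same order. SCR was the largest part of the root sum, at 47.8 CPM in WT. Of the 8 root markers past the filter, 0 were called higher against WT by edgeR in any genotype. Called lower were 6 in GRF1_OE, 2 in GRF3_OE and 3 in the libraries labelled grf123, beside 11.8%, 6.34% and 2.77% of all genes. RHD2 and SHR had higher means in the libraries labelled grf123 than in WT, and the other root markers lower ones. SEP3 and PI led the flower sum, at 14.1 and 8.39 CPM in GRF1_OE against 9.26 and 1.91 in WT. Of the 2 flower markers past the filter, 2 were called higher in GRF1_OE, 1 in GRF3_OE and 0 in the libraries labelled grf123, and 0 lower. Among all genes 10%, 6.07% and 2.11% were called higher. AP1, AP3 and AG had means of at most 0.914 CPM. AP1 was lower in GRF1_OE than in WT (0.122 against 0.467 CPM), and AP3 and AG had higher means there. In whole plants, fewer cells of a type and less RNA per cell cannot be told apart.

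In the TAIR10.1 annotation, HSFA6A (AT5G43840) occupies the minus strand at chr5:17625353-17626487, HSFA2 (AT2G26150) the plus strand at chr2:11135624-11137792, and HSFA7A (AT3G51910) the plus strand at chr3:19265141-19266806. The regions just upstream of these 3 genes are shown because HSFA6A carried the largest difference between genotypes, and because HSFA2 and HSFA7A were the 2 of the 10 genes whose upstream region held a heat shock element of 3 units. The sequences come from the RefSeq reference genome TAIR10.1 of the Columbia strain, not from Ws plants. Each is written 5′ to 3′ on the gene's own strand and ends at the base before the annotated start. Each covers 250 bases, or 158 for HSFA2, where the neighbouring gene AT2G26140 begins. Capitals mark every match to a motif searched.
HSFA6A upstream, chr5:17626488-17626737, minus strand: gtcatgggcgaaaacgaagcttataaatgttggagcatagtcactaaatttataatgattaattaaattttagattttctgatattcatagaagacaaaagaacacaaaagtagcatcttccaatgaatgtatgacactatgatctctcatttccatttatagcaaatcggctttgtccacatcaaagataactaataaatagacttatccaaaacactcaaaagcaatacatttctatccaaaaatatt
HSFA2 upstream, chr2:11135466-11135623, plus strand: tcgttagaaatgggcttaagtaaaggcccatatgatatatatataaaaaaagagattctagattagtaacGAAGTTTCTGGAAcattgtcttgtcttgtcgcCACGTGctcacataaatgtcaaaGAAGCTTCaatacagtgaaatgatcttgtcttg
HSFA7A upstream, chr3:19264891-19265140, plus strand: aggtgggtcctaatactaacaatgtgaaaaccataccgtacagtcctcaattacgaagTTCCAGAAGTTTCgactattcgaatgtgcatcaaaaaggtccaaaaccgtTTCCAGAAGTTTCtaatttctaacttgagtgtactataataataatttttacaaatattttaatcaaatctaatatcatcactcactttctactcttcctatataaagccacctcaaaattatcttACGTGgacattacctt

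The motifs searched, on both strands of the 250 bases before each of the 10 genes or of the shorter stretch up to a neighbouring gene, were the heat shock element pairs GAANNTTC and TTCNNGAA, the 3-unit form GAANNTTCNNGAA (on the other strand TTCNNGAANNTTC), the abscisic acid response element core ACGTG, the dehydration response element core CCGAC and the GRF site TGTCAGG. The 3-unit form contains both pair forms, so their matches overlap. HSFA2 held GAAGTTTCTGGAA from 88 to 76 bases before its start and the pair GAAGCTTC from 33 to 26 bases before it. HSFA7A held TTCCAGAAGTTTC, the same 13 letters, at 192 to 180 and again at 142 to 130 bases before its start. Both also held ACGTG. The 3-unit form occurs in 0.393% of 26705 windows of 250 bases before annotated genes, not shortened at neighbours, GAANNTTC in 9.47%, TTCNNGAA in 7.61% and ACGTG in 23.1%. HSFA4A held 1 pair, GAATTTTC, and HSFB2A held CCGAC, which occurs in 11.9% of windows. TGTCAGG, present in 0.741% of windows, was in none of the 10 regions, and the HSFA6A region held no match to any motif searched. A match is a description of letters, and a missing match says nothing of a factor.

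Of the 10 HSF genes, 8 passed the filter on low counts and were tested. Against WT, 3 of them differed in GRF1_OE by edgeR's quasi-likelihood test (Benjamini-Hochberg adjusted p under 0.05 over 17938 genes): HSFA3 was higher, and HSFA6A and HSFB2A were lower. In that comparison 21.8% of all genes tested were called. In GRF3_OE HSFA6A and HSFB2A were lower, 2 of 8 beside 12.4% of all genes. In the libraries labelled grf123 none of the 8 was called, beside 4.88% of all genes. Both overexpressors and the libraries labelled grf123 are set against the same 3 WT libraries, so these comparisons share their controls.

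In the same comparison of GRF1_OE with WT, the 3 called genes were also those whose libraries did not overlap between the genotypes, which held for 19% of all genes in the higher and 19.6% in the lower direction. In GRF3_OE against WT the libraries of HSFA6A and HSFB2A did not overlap, as for 15.5% of all genes in the lower direction. In grf123 against WT, 2 genes had an unadjusted edgeR p under 0.05, HSFA2 and HSFA3, as did 18.3% of all genes. Both were lower with no overlap, as for 10.5% of all genes (10.4% in the higher direction), while DESeq2 called 0. Between the overexpressors 0 of 8 genes were called by edgeR, beside 1.14% of all genes, and DESeq2 called 0 of the 6 for which it gave an adjusted p. An unadjusted edgeR p under 0.05 was found for 3 of the 8 (HSFA2, HSFA7A and HSFB2B) and for 10.3% of all genes. The genotypes' libraries did not overlap for HSFA3 and HSFA7A, higher in GRF1_OE, and HSFB2B, lower there, beside 8.51% and 9.62% of all genes. A test of any difference among the 4 genotypes called HSFA2, HSFA3, HSFA6A and HSFB2A, 4 of 8 beside 27.2% of all genes. HSFA2 was near the threshold there, with an edgeR adjusted p of 0.0463, and in 8 of 12 fits that each left out 1 library it no longer passed.

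**Figure D1:**
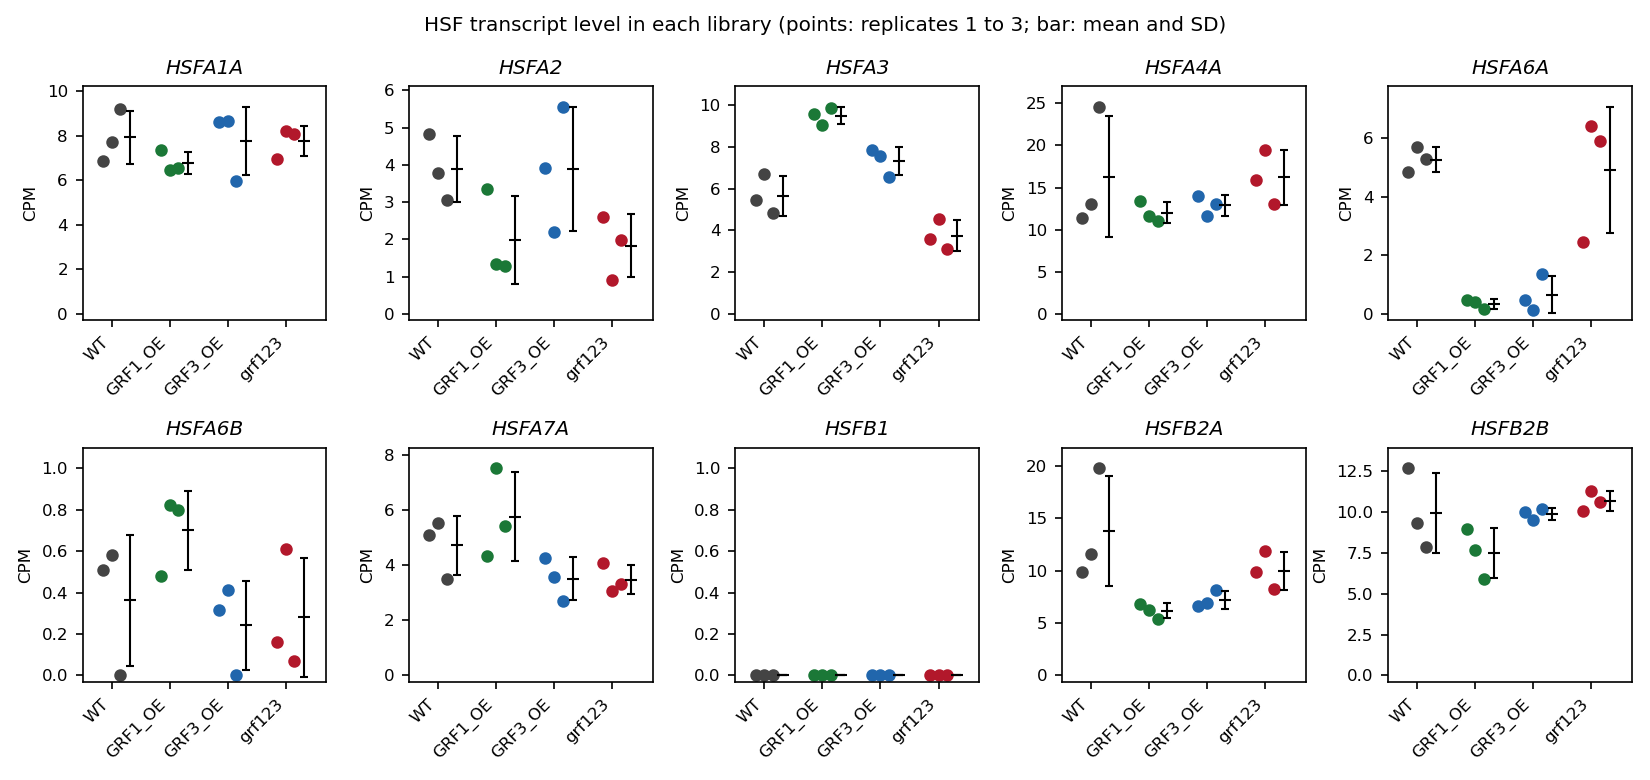
Level of each of the 10 HSF genes (CPM, linear axes that start at 0, 1 scale per gene) in the 4 genotypes; points are the 3 libraries in the order of their replicate numbers, and bars give the mean and SD. HSFA6A lies between 0.138 and 1.36 CPM in the 6 overexpressor libraries and between 2.44 and 6.4 CPM in the other 6, and HSFB1 is at 0 throughout.

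HSFA6A, a class A factor known to be induced by salt, drought and abscisic acid, showed the widest gap. In WT it stood at 4.83, 5.68 and 5.27 CPM in replicates 1, 2 and 3. In GRF1_OE it stood at 0.48, 0.411 and 0.159 CPM, from 3, 4 and 1 counts. In GRF3_OE it stood at 0.471, 0.138 and 1.36 CPM, from 3, 1 and 12 counts. All 6 overexpressor libraries lay below all 3 WT libraries, and GRF3_OE replicate 3 was the highest of the 6.

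The libraries labelled grf123 held HSFA6A at 2.44, 6.4 and 5.9 CPM, a range that includes all 3 WT values. Pooled over the 3 libraries, HSFA6A had 8 counts in GRF1_OE, which is 0.36 CPM with an exact 95% Poisson interval of 0.155 to 0.708. In WT it had 89 counts, 5.23 CPM with an interval of 4.2 to 6.43. These intervals cover counting error only, since without molecular identifiers several reads can stem from 1 molecule.

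HSFA6A fell by 3.81 on the log2 scale in GRF1_OE against WT (edgeR adjusted p = 3.61e-05, SE 0.54). In GRF3_OE it fell by 2.87 (edgeR adjusted p = 0.000685, SE 0.47). Without GRF3_OE replicate 3 that change was -4.08 (edgeR adjusted p = 0.000287). Against the libraries labelled grf123 the changes were -3.71 in GRF1_OE (edgeR adjusted p = 4e-05, SE 0.53) and -2.77 in GRF3_OE (edgeR adjusted p = 0.000309, SE 0.46). With so few counts in the overexpressors, the fitted size depends on how low counts are handled, while its sign did not differ over the alternatives run for these 4 comparisons.

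HSFA6A was not called in the remaining comparisons. Between GRF1_OE and GRF3_OE the log2 change was -0.94 (edgeR adjusted p = 0.743, SE 0.73), and it became 0.27 without GRF3_OE replicate 3. Between the libraries labelled grf123 and WT it was -0.10 (edgeR adjusted p = 0.922, SE 0.36).

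HSFA6B, the closest relative of HSFA6A and a positive factor in abscisic acid signalling, did not pass the filter. Its counts in replicates 1, 2 and 3 were 4, 4 and 0 in WT and 1, 2 and 1 in the libraries labelled grf123. GRF1_OE had 3, 8 and 5 counts, against 2, 3 and 0 in GRF3_OE. Pooled over libraries, GRF1_OE stood at 0.719 CPM (exact 95% Poisson interval 0.411 to 1.17) and WT at 0.47 CPM (0.203 to 0.926). A difference was not detectable at this depth, and without the filter the edgeR adjusted p for GRF1_OE against WT was 0.65.

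HSFA3 is a class A factor whose gene is switched on by the DREB2 factors in heat and drought. It was the only one of the 8 tested genes called higher in an overexpressor against WT. WT libraries held 5.46, 6.7 and 4.83 CPM. GRF1_OE libraries held 9.59, 9.05 and 9.89 CPM, all above WT and all above GRF3_OE.

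GRF3_OE libraries held HSFA3 at 7.85, 7.57 and 6.56 CPM, which reached into the WT range. The libraries labelled grf123 held 3.57, 4.57 and 3.09 CPM, all below WT. The 4 genotype means thus fell in the order GRF1_OE, GRF3_OE, WT and grf123, at 9.51 ± 0.425, 7.33 ± 0.679, 5.66 ± 0.949 and 3.75 ± 0.757 CPM (SD, n = 3). Only the ranges of GRF3_OE and WT overlapped among neighbours in this order.

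Against WT, HSFA3 rose by 0.70 on the log2 scale in GRF1_OE (edgeR adjusted p = 0.0166, SE 0.21). The call did not hold with DESeq2 (adjusted p = 0.0524) and in edgeR without WT replicate 1 (adjusted p = 0.0728), within a range of 0.0119 to 0.0728 over all alternatives. The change in GRF3_OE was 0.32 (edgeR adjusted p = 0.335, SE 0.21). The change in the libraries labelled grf123 was -0.73 (edgeR adjusted p = 0.0749, SE 0.24). None of the alternatives run brought either of the last 2 past the threshold.

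The changes of HSFA3 were larger when the overexpressors were set against the libraries labelled grf123. The log2 change was 1.43 in GRF1_OE (edgeR adjusted p = 5.58e-05, SE 0.21) and 1.05 in GRF3_OE (edgeR adjusted p = 0.00206, SE 0.22). HSFA3 and HSFA6A were the only 2 of the 8 genes called in these 2 comparisons, where 7.94% of all genes were called higher and 9.67% lower in GRF1_OE, and 14.9% either way in GRF3_OE. For GRF1_OE against grf123, 5 genes had libraries that did not overlap: HSFA3 and HSFA7A higher, and HSFA6A, HSFB2A and HSFB2B lower (18% and 17.9% of all genes in these directions). For GRF3_OE against grf123 there were 3, HSFA3 higher and HSFA6A and HSFB2A lower (17.5% and 16.7%).

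The gene of HSFA3 (AT5G03720, chr5:971142-974326, minus strand) overlaps AT5G03710 on the opposite strand over 486 bp. AT5G03710 had 2 counts over the 12 libraries. The sources used here do not say whether counting used strand, so reads of the 2 genes in that stretch cannot be told apart.

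**Figure D2:**
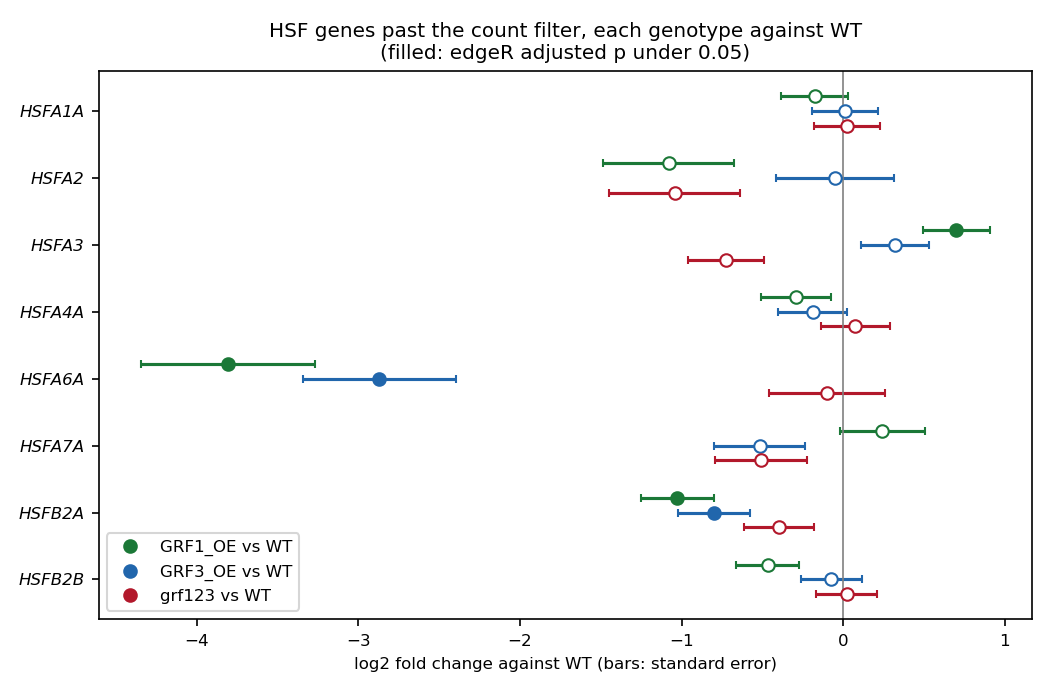
Log2 fold change of the 8 HSF genes past the count filter in each genotype against WT (horizontal axis; bars give the standard error, filled points have an edgeR adjusted p under 0.05). The filled points are HSFA3, HSFA6A and HSFB2A in GRF1_OE and HSFA6A and HSFB2A in GRF3_OE; all 3 comparisons share the WT libraries.

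HSFA2 is the factor that heat induces most strongly and that sustains acquired heat tolerance. In WT it stood at 4.83, 3.78 and 3.07 CPM, and in GRF3_OE at 3.92, 2.2 and 5.54. In GRF1_OE it stood at 3.36, 1.34 and 1.28 CPM. In the libraries labelled grf123 it stood at 2.6, 0.915 and 1.99 CPM, all below WT, while GRF1_OE replicate 1 lay inside the WT range.

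The log2 change of HSFA2 against WT was -1.08 in GRF1_OE (edgeR adjusted p = 0.0592, SE 0.41), -0.05 in GRF3_OE (edgeR adjusted p = 0.95, SE 0.37) and -1.04 in the libraries labelled grf123 (edgeR adjusted p = 0.154, SE 0.41). None of these passed the threshold. Without GRF1_OE replicate 1 the first was -1.63 (edgeR adjusted p = 0.0169), and over all alternatives its adjusted p ran from 0.0169 to 0.227. GRF3_OE stood above the libraries labelled grf123 by 0.99 on the log2 scale (edgeR adjusted p = 0.0891), which did not pass either. Without GRF3_OE replicate 2 that difference was 1.27 (edgeR adjusted p = 0.04), and without GRF3_OE replicate 3 it was 0.62 (edgeR adjusted p = 0.416).

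HSFA7A, a heat-induced relative of HSFA2, stood at 5.08, 5.53 and 3.51 CPM in WT. It stood at 4.32, 7.51 and 5.42 CPM in GRF1_OE, at 4.24, 3.58 and 2.71 in GRF3_OE and at 4.06, 3.05 and 3.3 in the libraries labelled grf123. Every GRF1_OE library lay above every library of the latter 2 genotypes. The log2 change of GRF1_OE against the libraries labelled grf123 was 0.75 (edgeR adjusted p = 0.0519), and against GRF3_OE 0.76 (edgeR adjusted p = 0.214). The first passed without GRF1_OE replicate 1 (0.91, edgeR adjusted p = 0.0361) and with upper-quartile factors (edgeR adjusted p = 0.0496), and the second under none of the alternatives run. Without GRF1_OE replicate 2 they were 0.48 (edgeR adjusted p = 0.316) and 0.49 (edgeR adjusted p = 0.689).

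HSFA1A is among the constitutive factors that start the heat response, and its transcript varied little. Its lowest and highest libraries over all genotypes were at 5.99 and 9.22 CPM, and the edgeR adjusted p for any difference among the genotypes was 0.799. HSFA4A, a factor linked to oxidative and salt stress, was at 11.4, 13 and 24.6 CPM in WT, with WT replicate 3 far above the others, and between 11 and 19.5 CPM elsewhere. Its edgeR adjusted p for any difference was 0.436.

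HSFB2A is a class B factor without an activation domain. In WT it stood at 9.9, 11.6 and 19.8 CPM, with WT replicate 3, the shallowest library, highest. In GRF1_OE it stood at 6.87, 6.27 and 5.42 CPM and in GRF3_OE at 6.59, 6.88 and 8.14. All 6 overexpressor libraries lay below all 3 WT libraries.

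The libraries labelled grf123 held HSFB2A at 9.91, 11.9 and 8.24 CPM, with replicates 1 and 2 inside the WT range and replicate 3 below all 3 WT libraries. Against WT, HSFB2A fell by 1.03 on the log2 scale in GRF1_OE (edgeR adjusted p = 0.00229, SE 0.23) and by 0.80 in GRF3_OE (edgeR adjusted p = 0.0201, SE 0.22). Without WT replicate 3 the change in GRF1_OE was -0.79 (edgeR adjusted p = 0.00904). The call in GRF3_OE was lost without WT replicate 3 (-0.57, edgeR adjusted p = 0.0757), without GRF3_OE replicate 1 (adjusted p = 0.0646) and without GRF3_OE replicate 2 (adjusted p = 0.0653), within a range of 0.00979 to 0.0757 over all alternatives. The change in the libraries labelled grf123 was -0.40 (edgeR adjusted p = 0.341, SE 0.22). It was -0.60 without WT replicate 1 (edgeR adjusted p = 0.144), -0.17 without WT replicate 3 (edgeR adjusted p = 0.751) and -0.22 without grf123 replicate 3 (edgeR adjusted p = 0.777).

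HSFB2B, a repressor of heat-induced HSF genes, was at 12.7, 9.32 and 7.9 CPM in WT and at 8.95, 7.71 and 5.9 in GRF1_OE. It was between 9.5 and 11.3 CPM in the other 6 libraries, all above all 3 GRF1_OE libraries. The log2 change of GRF1_OE against WT was -0.47 (edgeR adjusted p = 0.0853, SE 0.19), which did not pass, and it was -0.23 (edgeR adjusted p = 0.501) without WT replicate 1. HSFB2B (AT4G11660, chr4:7042354-7044708, plus strand) overlaps AT4G11670 on the opposite strand over 308 bp. AT4G11670 stood at 20.7 to 31.4 CPM, above HSFB2B in every library. Reads of the shared stretch may have been set aside as overlapping more than 1 gene, which was not tested.

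HSFB1, the partner of HSFB2B in repressing heat-induced HSF genes, was listed at 0 in all 12 libraries, as were 4849 of the 28775 loci. Other genes known to carry conserved upstream open reading frames, as HSFB1 does, were listed at 0 as well. Of 10 such genes, picked after the HSFB1 value was seen, 9 were at 0 in all libraries, and SAMDC1, which plant cells use throughout, had 4 counts in all. Locus AT4G36988 was at 0 too. Reads that overlapped more than 1 gene made up 1.3 to 1.89% of unique reads, and whether reads of HSFB1 were among them was not tested.

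Levels of different HSF genes can be compared only per length, as CPM per kb of exon. HSFA3 and HSFB2B may be too low on this measure, if reads of the stretches they share with another gene were set aside. In WT the order was HSFB2A at 7.85 ± 3 (SD, n = 3), HSFA4A at 6.96 ± 3.07, HSFA6A at 4.98 ± 0.403, HSFA1A at 4.72 ± 0.712, HSFB2B at 4.4 ± 1.09 and HSFA7A at 4.06 ± 0.914 CPM per kb. Neighbours in that stretch of the order overlapped between libraries. Then came HSFA3 at 2.56 ± 0.429 and HSFA2 at 2.08 ± 0.47, which overlapped each other but lay below HSFA7A, and HSFA6B at 0.23 ± 0.201, below HSFA2.

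The place of HSFA6A in this order differed between genotypes. It ranked 3 of 10 in WT and 4 in the libraries labelled grf123 (4.65 ± 2.05 CPM per kb), but 8 in GRF3_OE (0.62 ± 0.597) and 9 in GRF1_OE (0.332 ± 0.16), where its libraries overlapped those of HSFA6B. HSFA3 ranked 3 in GRF1_OE (4.3 ± 0.192 CPM per kb) and 7 in WT. HSFA2 ranked 7 or 8 in every genotype. HSFB1 took rank 10 in each genotype through its value of 0, and its true place is not known.

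**Figure D3:**
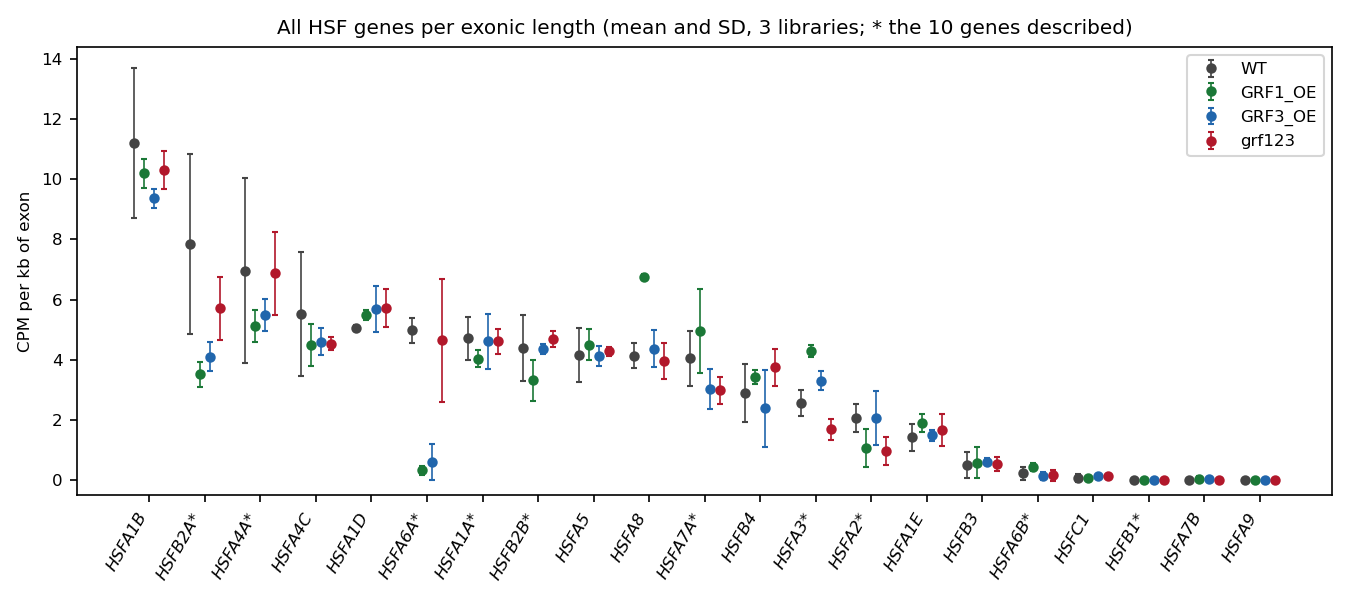
Level of all 21 HSF genes in CPM per kb of exon (vertical axis, linear; points are means and bars SDs over 3 libraries), ordered by the WT mean, with the 10 genes described marked by a star. HSFA6A stands at 4.98 in WT and 4.65 in grf123 against 0.332 in GRF1_OE and 0.62 in GRF3_OE. Of the other HSF genes, HSFA8 was called against WT, higher in GRF1_OE, 1 of 7 tested beside 21.8% of all genes.

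Of the other 11 HSF genes, 7 passed the filter. Only HSFA8 differed from WT, standing at 11.6 ± 0.166 CPM in GRF1_OE and 7.12 ± 0.724 in WT (log2 change 0.74, edgeR adjusted p = 0.00633, SE 0.19). That is 1 of 7 in GRF1_OE beside 21.8% of all genes, so no more than the share over all genes. In GRF3_OE and grf123 it was 0 of 7, beside 12.4% and 4.88%. The constitutive factors HSFA1B, HSFA1D and HSFA1E had log2 changes between -0.19 and 0.30 against WT in the 3 other genotypes. HSFA4C, HSFA5 and HSFB4 ranged from -0.40 to 0.26. HSFA7B, HSFB3 and HSFC1 were too low to test, and HSFA9, the seed-specific factor, was listed at 0 in all 12 libraries.

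HSF activity is set by partner proteins and by factors that switch on HSF genes, and a list of 16 such genes was examined. In GRF1_OE against WT 3 were higher and 6 lower, with a median log2 change of -0.21 beside 0 over all genes tested, where 10% were called higher and 11.8% lower. DREB2C, an activator of HSFA3, stood at 5.7 CPM in GRF1_OE, 6.5 in GRF3_OE and 2.79 in WT. Its log2 changes were 1.26 (edgeR adjusted p = 0.0418, SE 0.43) and 1.42 (edgeR adjusted p = 0.0337, SE 0.42). The first call needed WT replicates 1 and 2 and GRF1_OE replicates 1 and 2 each to be present, with a change of 0.95 (edgeR adjusted p = 0.191) without WT replicate 1. The second was lost without GRF3_OE replicate 1 or WT replicate 1 or 2, with a change of 0.99 (edgeR adjusted p = 0.134) without GRF3_OE replicate 1. The related activator DREB2A was not called, with log2 changes of 0.28 and 0.18 in the same comparisons.

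ROF2, a peptidyl-prolyl isomerase that binds HSP90 and HSFA2, stood at 21.4 CPM in GRF1_OE and 42.3 in WT, a fall of 0.99 on the log2 scale (edgeR adjusted p = 0.0057, SE 0.22). HSP90-1, the heat-induced HSP90 chaperone that holds HSFs inactive, fell from 60.5 to 29.8 CPM (log2 change -1.04, edgeR adjusted p = 0.0114, SE 0.24). NF-YC10, a partner of DREB2A, rose by 0.72 (edgeR adjusted p = 0.0057, SE 0.18). Leaving out 1 library kept these 3 calls. The number of list genes called in GRF1_OE ran from 4 to 8 when 1 library was left out, against 9 with all, and was 4 without GRF1_OE replicate 1, GRF1_OE replicate 2 or WT replicate 2.

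In GRF3_OE 2 of the 16 genes were higher and 1 lower, beside 6.07% and 6.34% of all genes. HSBP, which dissociates active HSF complexes, rose from 24.5 to 37.8 CPM (log2 change 0.60, edgeR adjusted p = 0.00582, SE 0.13), and BZIP28, an endoplasmic reticulum stress factor, fell by 0.36 (edgeR adjusted p = 0.0462), a call lost in 5 of 6 fits without 1 library. In the libraries labelled grf123 1 was higher and 2 lower, beside 2.11% and 2.77% of all genes. These were NF-YC10 (0.66, edgeR adjusted p = 0.0334), ROF2 (-0.87, edgeR adjusted p = 0.0347) and the kinase gene MPK3 (-0.48, edgeR adjusted p = 0.0375), and each of the 3 calls was lost in 4 of 6 fits without 1 library.

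Heat shock chaperone genes and other genes that HSFs activate formed a list of 25, of which 21 passed the filter, with HSP90-1, ROF2 and MBF1C also on the list of partners. In GRF1_OE 1 was higher and 11 lower, beside 10% and 11.8% of all genes, with a median log2 change of -0.996. That count of 12 ran from 8 to 16 when 1 library was left out. HSP70-4, a cytosolic HSP70 chaperone, was at 154, 167 and 184 CPM in WT and 69.4, 33.8 and 66.7 in GRF1_OE (log2 change -1.58, edgeR adjusted p = 0.0183, SE 0.37). HSP101, the disaggregase that acquired heat tolerance requires, fell from 28.8 to 13.3 CPM (log2 change -1.12, edgeR adjusted p = 0.000275, SE 0.19). The small heat shock protein genes HSP17.6A and HSP17.6II fell by 1.89 (edgeR adjusted p = 0.0117) and 1.54 (edgeR adjusted p = 0.0179), the second call lost without GRF1_OE replicate 2 or replicate 3. HSP23.5, which encodes a mitochondrial small heat shock protein, was the 1 gene called higher (0.80, edgeR adjusted p = 0.0162).

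In the libraries labelled grf123, 0 of these 21 genes were higher and 5 lower, beside 2.11% and 2.77% of all genes, with a median of -0.72. HSP17.6A stood at 1.14, 1.52 and 1.37 CPM there and at 6.98, 8.44 and 11 in WT, a log2 change of -2.64 (edgeR adjusted p = 0.00869, SE 0.52). HSP17.6II fell by 2.37 (edgeR adjusted p = 0.00656, SE 0.49). Both calls were lost without grf123 replicate 3, the deepest library of that genotype. HSP101 fell by 0.95 (edgeR adjusted p = 0.0039, SE 0.19), and this call was kept when any 1 of the 6 libraries was left out. The count of 5 became 1 without grf123 replicate 3, was 3 without any 1 of the WT libraries, and reached 6 without grf123 replicate 1.

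In GRF3_OE, 0 were higher and 3 lower against WT, beside 6.07% and 6.34% of all genes, with a median of -0.28. These were HSP101 (-0.57, edgeR adjusted p = 0.0416), CLPB3, which encodes a plastid protein (-0.54, edgeR adjusted p = 0.0201), and CLPB4, which encodes a mitochondrial protein (-0.37, edgeR adjusted p = 0.0417). The count was between 0 and 2 in every fit without 1 library, with 0 reached without GRF3_OE replicate 2 or WT replicate 2. Set against the libraries labelled grf123, 6 of the 21 genes were higher in GRF3_OE and 1 lower, beside 7.53% and 7.38% of all genes. That count of 7 became 2 without grf123 replicate 2, 3 without grf123 replicate 3, GRF3_OE replicate 1 or GRF3_OE replicate 3, 4 without grf123 replicate 1 and 6 without GRF3_OE replicate 2.

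**Figure D4:**
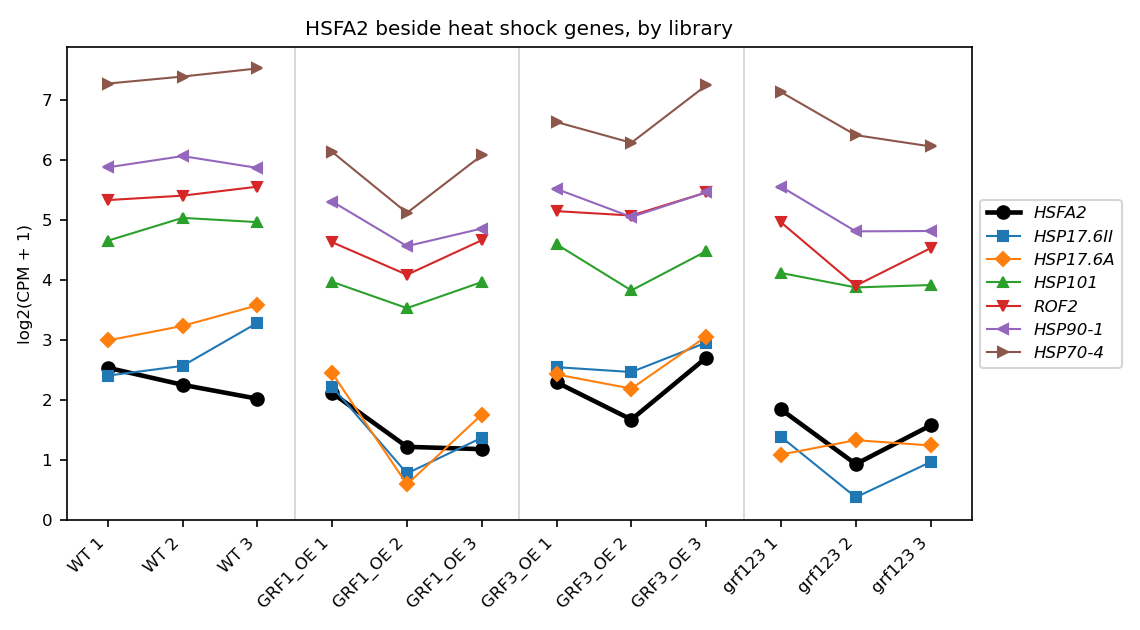
HSFA2 (thick black line) beside 6 heat shock and HSP90-associated genes, in log2(CPM + 1) for each of the 12 libraries; lines join libraries of a genotype only to guide the eye, since replicates have no order. HSFA2 and HSP70-4 are lower in GRF1_OE replicates 2 and 3 than in any WT library, and GRF3_OE replicate 3 is the highest of its genotype for both.

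Abscisic acid response genes were listed because HSFA6A is one of the HSF genes this hormone induces. Of 22 genes, 20 passed the filter. In GRF1_OE 1 was higher and 11 lower (median log2 change -0.76), beside 10% and 11.8% of all genes. This count of 12 fell to between 9 and 11 when 1 library was left out. In GRF3_OE 0 were higher and 9 lower (median -0.65), beside 6.07% and 6.34%, and the count ran from 8 to 10 with 1 library left out. In the libraries labelled grf123 2 were higher and 3 lower (median -0.13), beside 2.11% and 2.77%. The last count of 5 became 1 without grf123 replicate 3, 2 without grf123 replicate 2, 3 without WT replicate 2 or 3, and 9 without grf123 replicate 1.

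The phosphatase genes HAI1 and HAI2, which abscisic acid induces, are named because their profiles were among the nearest to that of HSFA6A. That they followed it across genotypes is therefore a description, fixed by how they were picked. HAI2 was at 9.65, 10.9 and 5.71 CPM in WT and at 7.47, 14 and 16 CPM in the libraries labelled grf123. Its GRF1_OE libraries held 1.76, 1.34 and 0.957 CPM and its GRF3_OE libraries 1.26, 1.79 and 2.94 CPM, all below every library of the other genotypes. It fell by 2.77 in GRF1_OE (edgeR adjusted p = 2.69e-05, SE 0.36) and by 2.17 in GRF3_OE (edgeR adjusted p = 0.00066, SE 0.34). HAI1 fell by 2.31 (edgeR adjusted p = 9.73e-05, SE 0.33) and 1.78 (edgeR adjusted p = 0.00151, SE 0.31).

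Protective protein genes of the list did not all follow HSFA6A in the libraries labelled grf123. LEA4-5, a late embryogenesis abundant protein gene, was at 17, 20.8 and 16.2 CPM in WT but at 3.57, 6.1 and 4.6 there (log2 change -1.99, edgeR adjusted p = 9.89e-05, SE 0.28). LEA7 fell most of the 3 genes called lower, from 160 to 17.1 CPM (log2 change -3.16, edgeR adjusted p = 0.0287). That call was lost in 5 fits without 1 library. RD29B and RAB18 had lower means there without a call, at 27.1 against 87.9 CPM and 64.6 against 247. RD29A and COR15A had higher means, at 53 against 33.3 CPM and 50.2 against 18.8. TSPO, a membrane protein gene induced by abscisic acid, stood at 1.27 CPM there against 7.36 in WT (log2 change -2.32, edgeR adjusted p = 0.0158), a call lost without grf123 replicate 2 or replicate 3. KIN2, a cold and abscisic acid induced gene, was higher there at 21.7 CPM against 10.1 (log2 change 1.25, edgeR adjusted p = 0.00941), a call lost without grf123 replicate 3 or WT replicate 2. HSFA6A itself was not called in that comparison, with -0.10.

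Seed storage protein and oil body protein genes, 9 markers in all, moved with HSFA6A in part. They summed to 6.35, 57.5 and 22 CPM in WT replicates 1, 2 and 3, to at most 0.72 CPM in GRF1_OE and 0.688 in GRF3_OE, and to 0.812, 19.5 and 38.8 CPM in grf123 replicates 1, 2 and 3. In GRF1_OE replicate 3 all 9 were at 0, and CRU2 and SESA4 were at 0 in 2 of the 3 WT libraries. In grf123 replicate 1, HSFA6A stood at 2.44 CPM with the markers at 0.812. GRF3_OE replicate 3 had the highest HSFA6A of its genotype and the lowest marker sum, 0.113 CPM. The part of seed RNA in the HSFA6A result was not tested.

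**Figure D5:**
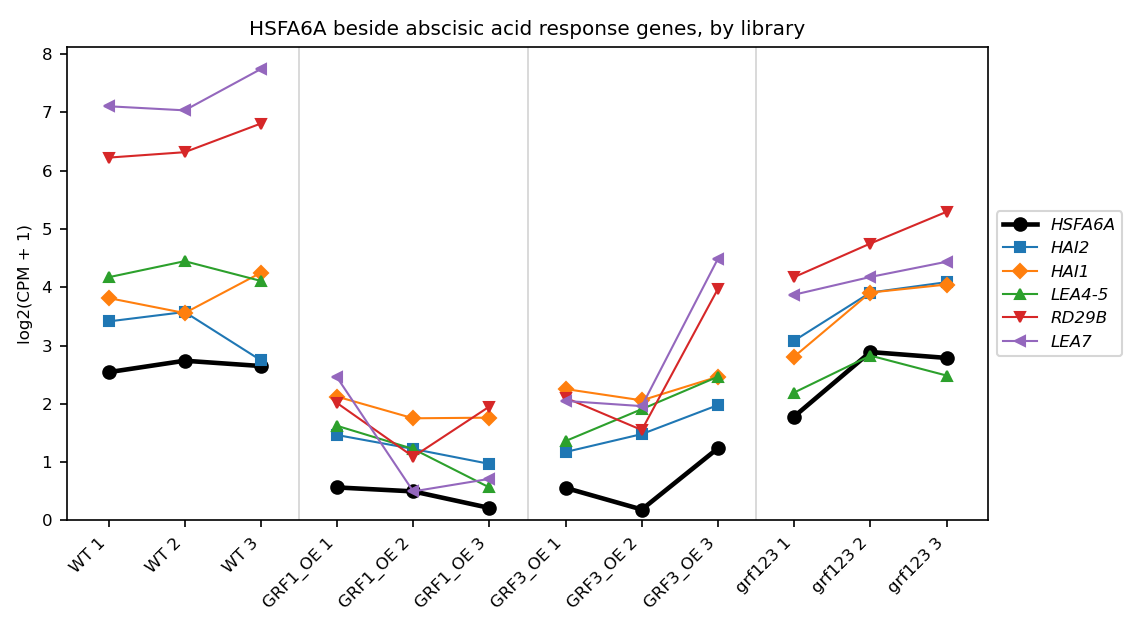
HSFA6A (thick black line) beside 5 abscisic acid response genes, in log2(CPM + 1) for each of the 12 libraries; lines join libraries of a genotype only to guide the eye. HAI1 and HAI2 were picked for likeness to HSFA6A, and the other listed genes for the size of their change against WT. The 6 genes are lower in all 6 overexpressor libraries than in any WT library, and GRF3_OE replicate 3 is the highest of its genotype for each of them.

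The genes whose profile over the 12 libraries was nearest to that of an HSF gene were listed by the root mean square difference of log2 CPM, centred per gene. For HSFA6A these were DAA1 (0.44), HAI2 (0.49), HAI1 (0.64) and the dehydrin gene XERO1 (0.74), where the median gene stood at 1.57. DAA1, which encodes an ATPase, averaged 37.8 CPM in WT, 26 in the libraries labelled grf123, 5.19 in GRF1_OE and 7.55 in GRF3_OE.

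For HSFA2 the nearest were RAP2.1, a transcription factor gene of the DREB family (0.29), the co-chaperone gene Hop3 (0.41), HSP90-1 (0.42) and BGLU28 (0.44), against a median of 0.73. RAP2.1 averaged 4.3 CPM in WT, 4.08 in GRF3_OE, 2.32 in GRF1_OE and 2.15 in the libraries labelled grf123. HSFA2 averaged 3.89 CPM in WT, 3.89 in GRF3_OE, 1.99 in GRF1_OE and 1.83 in the libraries labelled grf123. For HSFB2A they were BZIP34 (0.16), the salicylic acid receptor gene NPR3 (0.20), the chromatin remodelling gene SYD (0.20) and the kinase gene CIPK20 (0.20), against a median of 0.55. These nearest genes were picked for likeness, so their values are a description.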

How the data were processed

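Each library came as 1 deposited file of raw counts of reads per locus, with no normalization by the authors. The submitters' processing notes name Trimmomatic, TopHat2 2.0.14, HTSeq, DESeq2 and the TAIR10 build, with no roles; whether counting used strand is not given in the sources used here. The 5 rows that name no gene held 57.6 to 76.9% of counts and were left out.

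Counts of all 12 libraries entered 1 fit with edgeR 4.0.16 (R 4.3.3; TMM factors, filterByExpr with a minimum count of 10 and total of 15, robust quasi-likelihood F test, genotype as the only term, 8 residual degrees of freedom), with Benjamini-Hochberg adjustment over the 17938 genes past the filter. A standard error is the absolute log2 change over the square root of F. Single genes were not tested by permutation, since 3 libraries against 3 cannot give a p below 0.1. Exonic lengths, available for 97.3% of loci, and sequences came from RefSeq TAIR10.1.

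The HSF genes and gene lists were chosen with earlier results of these data known. Named are all HSF genes, GRF1 to GRF3, up to 4 called genes per list and comparison with at least 5 CPM, and the 4 nearest profiles of the 3 HSF genes with the largest change. DREB2A, HSP23.5 and the genes with upstream open reading frames were named after their values were seen. The fit was also run on counts simulated with its own estimates of the spread, with changes placed only in genes above 5 CPM in WT. That run does not cover levels as low as those of HSFA6A in the overexpressors. Alternatives were other size factors, filters, DESeq2 1.42.0, the 6 compared libraries alone, a replicate block, removal of the trend on exonic length, and each library left out.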

Additional observations from a re-analysis of the deposited data

How the results depend on the processing

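Over the 8 tested HSF genes, 6 comparisons and all alternatives, 624 values kept their direction and side of the threshold, 9 passed it where the reported value did not, 5 no longer passed, and 29 changed sign, all of genes not called. The number of HSF genes called, with 1 library left out, ran from 2 to 4 in GRF1_OE against WT, 1 to 2 in GRF3_OE against WT, 0 to 0 in grf123 against WT and between the overexpressors, 2 to 3 in each overexpressor against grf123, and 3 to 5 for any difference. The count of 1 in GRF3_OE came without its replicate 1, its replicate 2 or WT replicate 3, in each case by loss of HSFB2A. Taken over all genotypes, the replicate numbers did not pair the libraries. Deviations of same-numbered libraries correlated between -0.131 and 0.138, with 1 of 18 above 0.1, and those of differently numbered ones between -0.155 and 0.235. Between GRF3_OE and WT, however, same-numbered libraries correlated at 0.091 to 0.138 and differently numbered ones at -0.107 to -0.019. Whether these genotypes share blocks by number was not tested. With a replicate block the counts were 4 in GRF1_OE (HSFA2 added, -1.08, edgeR adjusted p = 0.0423), 2 in GRF3_OE and 0 in grf123 against WT, and 8 heat shock genes were called in grf123 in place of 5. DESeq2 gave no adjusted p for HSFA6A or HSFA2 in GRF3_OE against WT or between the overexpressors, and HSFA6A passed no filter in the 6 libraries of the overexpressors alone. With the trend on exonic length removed, 460 of all genes were called higher and 429 lower in GRF3_OE against WT, in place of 1088 and 1138. In GRF1_OE against WT they were 1129 and 1414, in place of 1794 and 2117. HSFA6A and HSFB2A stayed called in GRF3_OE with that trend removed (edgeR adjusted p = 0.000629 and 0.0302).

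Sign changes with 1 library left out were these, as the lowest and highest log2 change. In GRF1_OE against WT HSFA7A ran from -0.024 to 0.402. In GRF3_OE against WT HSFA1A ran from -0.10 to 0.18, HSFA2 from -0.43 to 0.23, HSFA4A from -0.405 to 0.073 and HSFB2B from -0.17 to 0.16. In grf123 against WT HSFA1A ran from -0.08 to 0.10, HSFA4A from -0.14 to 0.34, HSFA6A from -0.37 to 0.21 and HSFB2B from -0.071 to 0.258. Between the overexpressors HSFA6A ran from -1.40 to 0.27. Against grf123, HSFA2 ran from -0.58 to 0.23 in GRF1_OE, and HSFA1A from -0.11 to 0.16 and HSFA7A from -0.16 to 0.16 in GRF3_OE. HSFA1A in GRF3_OE against WT became -0.002 with DESeq2 and -0.049 with the length trend removed, and HSFA2 in GRF1_OE against grf123 became 0.012 with DESeq2 and 0.066 with the replicate block. The cause was not tested. Depth limits HSFA6A, HSFA6B and HSFA2 most, with 8 to 122, 4 to 16 and 42 to 90 counts per genotype.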
